A study of Mus musculus with 27 samples.

Results

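Potassium channel genes were taken as every row of the 3 gene count tables whose symbol begins with Kcn, the gene symbol prefix for channels selective for potassium and for their accessory subunits. The tables held 99 such symbols. Of these, 87 had at least 10 counts in at least 2 libraries of a table and are described here: 83 of 99 rows in embryonic pancreas, 74 of 94 in islets and 65 of 95 in motor neuron progenitors, out of 55536, 26487 and 39017 rows in all, with 53 symbols described in all 3 tables. Next to the minimum, the second highest count was 8 for Kcnh5 and 11 for Kcnrg in embryonic pancreas, 9 for Kcnh7 and 10 for Kcnj9 in islets, and 9 for Kcnk9 and 10 for Kcnk4 in progenitors.

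The 24 RNA libraries came from mice and mouse cells in which Nkx2.2, a homeodomain transcription factor of pancreatic endocrine cells and of ventral neural progenitors, was wildtype, mutated in its SD domain (SDmut) or labelled as knocked out. Whole E15.5 embryonic pancreata were wildtype (3 libraries) or Nkx2.2SDmut (4 libraries). Islets at 8 weeks were wildtype (2) or carried the SD mutation specifically in beta cells (betaSDmut, 3), and islets at 4 weeks were controls (2) or labelled betaKO (2). Progenitors at day 4 of differentiation from mouse embryonic stem cells were an uninduced iNkx2.2 line (pMN, 3), the same line given 1 µg/ml doxycycline for about 16 h to switch on a FLAG-tagged wildtype Nkx2.2 transgene (iNkx2.2, 3), or a separate iSDmut line whose transgene holds the mutations of the mice, induced in the same way (iSDmut, 2). Binding of Nkx2.2 was mapped by chromatin immunoprecipitation (ChIP) in MIN6 cells, a transformed mouse beta-cell line (2 libraries, with 1 input library that was not used here). The promoter that made the islet mutations specific to beta cells, the zygosity of the embryos and whether animals were pooled are not given in the sources used here. Nothing in the labels says which libraries came from separate animals or cultures, so p-values measure the spread between these libraries, which may be technical.

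Potassium channels let potassium leave the cell and so hold or restore the resting membrane potential. In the beta cell, the ATP-sensitive channel, built from Kcnj11 pores and Abcc8 sulfonylurea receptors, closes when glucose is metabolised, the membrane depolarises, calcium enters and insulin is released. Voltage-gated and calcium-activated channels then repolarise the membrane, and tandem-pore-domain channels (the Kcnk genes) carry a background leak. In developing neurons the same families set excitability as cells leave the cycle.

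The libraries of embryonic pancreas held 38447596 to 41840638 counts each, those of islets 12398041 to 32385406, and those of progenitors 17757991 to 46840701. Nkx2-2 transcript was at 92.8 and 64.3 CPM, counts scaled to a common library size, in the libraries labelled betaKO and at 103 and 76.2 in their controls, which overlap, so directions below are those of the libraries so labelled. The deleted part of the gene is not given in the sources used here. Beta-cell markers defined all islet libraries (Ins2 at 107148 CPM or more). In embryonic pancreas, 12 muscle genes summed to 6600 CPM in control 3 and 7487 in SDmut 2 and to 14.6 to 84.9 in the other 5 libraries. In progenitors, Nkx2-2 was at 5.4 to 11.6 CPM in pMN, 343 to 378 in iNkx2.2 and 245 to 248 in iSDmut. GEO's label for the molecule of the 4-week islets reads genomic DNA, but the deposited columns are counts per gene with islet transcripts in them.

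Nkx2.2-bound sites lay near several of the genes whose levels are described below. Of 6473 final sites deposited by the authors from MIN6 cells, 47 fell within 20 potassium channel genes or the 10000 bp upstream of them, 39 of them in introns, and 18 of the 20 genes are described here. The authors' deposited table joins 11 potassium channel genes to a site. The windows below are 101 bases of the plus strand of GRCm38 (mm10) centred on 5 such sites, chosen because the gene moved in islets (Kcnj13, Kcnj5, Kcnc4) or is among the most abundant there (Kcnj11, Kcnmb2). Capitals mark GTTGCNA on either strand, where N is any base.
Kcnj13 chr1:87393865-87393965: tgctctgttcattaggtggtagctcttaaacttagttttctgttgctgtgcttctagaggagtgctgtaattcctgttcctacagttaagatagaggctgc
Kcnj5 chr9:32354084-32354184: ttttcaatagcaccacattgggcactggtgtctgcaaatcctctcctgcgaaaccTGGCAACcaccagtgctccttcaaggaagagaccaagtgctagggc
Kcnc4 chr3:107443961-107444061: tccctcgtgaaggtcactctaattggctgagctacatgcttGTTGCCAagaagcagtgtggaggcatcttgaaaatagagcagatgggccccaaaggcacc
Kcnmb2 chr3:31905003-31905103: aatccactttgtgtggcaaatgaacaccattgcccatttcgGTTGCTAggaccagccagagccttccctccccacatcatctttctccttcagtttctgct
Kcnj11 chr7:46123197-46123297: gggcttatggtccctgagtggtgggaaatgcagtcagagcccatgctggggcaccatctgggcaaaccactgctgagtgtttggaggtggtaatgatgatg

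The word GTTGCNA was found on either strand in 23.9% of all 6473 windows and in 2.61% of windows of the same length 2000 bases away. TTGAGTG, a word close to the core that NK2-class homeodomains bind, was found in 7.37% against 1.17% away, and TNAAGTG in 7.79% against 5.48%. The letters of the words exclude one another at a fixed base, so no stretch of their length counts for more than one of them. GTTGCNA and TTGAGTG were taken up after words had been counted over all final sites. At least 1 of them was in 22 of 49 windows at potassium channel genes, the 47 above with a site upstream of Kcnj11 and one downstream of Kcnh2 that the authors joined, and in 36.5% of all final windows. A match is a description of the letters and not of binding by a factor.

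The Kcnj13 site lay in an intron, 814 bp from the gene's start, with a mean log2 CPM of 7.46 over the 2 ChIP libraries and rank 1437 by that value. The stronger of the Kcnj5 sites was 9784 bp upstream of the start (log2 CPM 7.17, rank 2106) and a weaker one 8430 bp upstream (6.08, rank 6310). The site joined to Kcnj11 was 22483 bp upstream at rank 251 (log2 CPM 8.75). Kcnmb2 held 5 sites, the highest at rank 183 in an intron 2546 bp from the start, Kcnip4 held 7, Kcnma1 6 and Kcnip1 5. Kcnk2 had no final site within the gene or upstream stretch, and the one within reach of Kcnab3, 8511 bp upstream at rank 5556, was nearer the start of Cntrob. Genes with a site, the joined Kcnj11 and Kcnh2 included, were the longer ones: among those tested at 8 weeks, the median span was 175.0 kb with a site and 39.4 kb without.

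In control islets the most abundant potassium channel transcripts per length were those of the leak and ATP-sensitive channels. Levels per length are the authors' FPKM values. Kcnk16, which encodes the leak channel TALK-1 of islet cells, stood first at 297 ± 4.24 FPKM (SD, n = 2) at 8 weeks and 311 ± 24.0 (n = 2) at 4 weeks. Kcnj11 was second at 8 weeks (67.0 ± 4.31) and Kcnmb2, a regulatory subunit of the large-conductance calcium-activated channel, came next (43.9). Kcnip1, a calcium-binding partner of transient voltage-gated channels, followed at 37.6 and Kcnh2, the ERG channel, at 32.8. At 4 weeks Kcnmb2 (54.5 FPKM) and Kcnj11 (52.0 ± 7.0) came after it, and differed by less than the spread between libraries. Kcnk16 was first and Kcnj11 among the first 3 in all 4 islet groups.

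**Figure D1:**
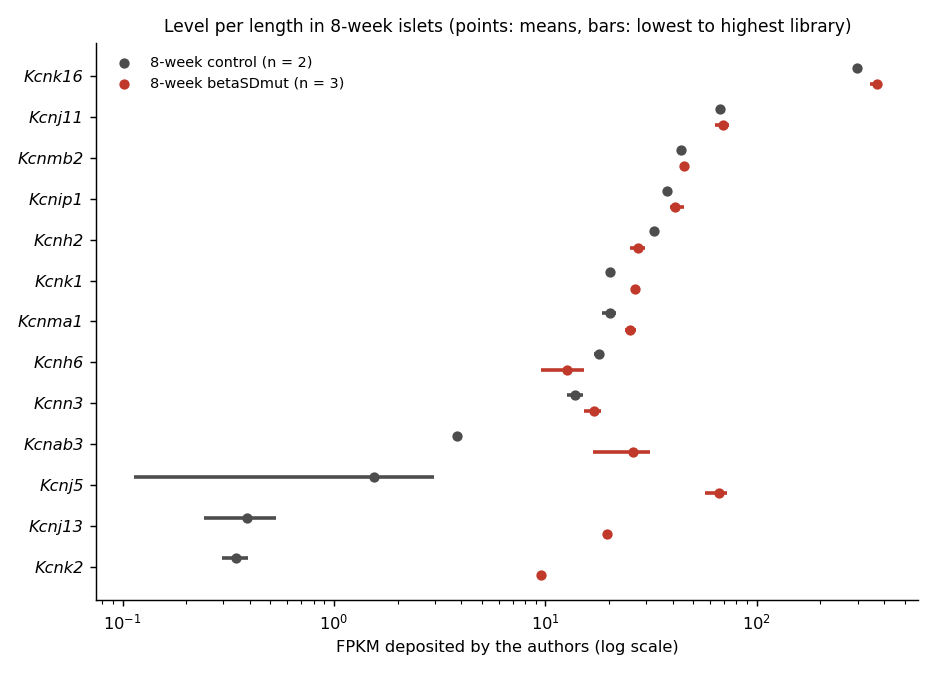
Deposited FPKM on a log axis for the 9 highest potassium channel genes of 8-week control islets and for Kcnab3, Kcnj5, Kcnj13 and Kcnk2. Points are group means of 2 control and 3 betaSDmut libraries and bars run from the lowest to the highest library. Kcnk16 and Kcnj11 lead, and Kcnj5 moves from 1.54 to 65.9 FPKM.

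In 8-week islets with the SD mutation in beta cells, 10 potassium channel genes rose and 1 fell of 70 tested, against 7.94% of all 15413 genes tested. A gene is called here where the adjusted p of edgeR's quasi-likelihood test, Benjamini-Hochberg corrected over all genes tested, was under 0.05. The median log2 fold change of the 70 was -0.04, against 0.01 for all genes. The count was 3 without control 1, without control 2 or without betaSDmut 2, where 0.282%, 0.234% and 2.52% of all genes were called, and 21 without betaSDmut 1, against 18.1% of all genes. Of the 11 called genes, Kcnj13 and Kcnk2 were still called without either control, and these with Kcnab3 without betaSDmut 2. The list of beta markers summed to 233122 and 238653 CPM in controls and 196786 to 215029 in betaSDmut, and that of acinar markers to 14250 and 8527 against 1013, 2145 and 11479. Their part in the results was not tested. In bulk tissue, fewer cells of a type and less RNA per cell cannot be told apart.

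Of 12 inward rectifiers, which pass potassium more readily into the cell than out of it, 2 rose, Kcnj13 and Kcnj6, and none fell. That is 16.7%, against 7.94% of all genes called, with a median log2 fold change of -0.30. The ATP-sensitive pore lay close between groups. Kcnj11 was at 155 and 167 CPM in controls and at 157, 173 and 171 in betaSDmut, a log2 fold change of 0.04 (SE 0.083, adjusted p = 0.774 by edgeR). Its partner Abcc8 had a log2 fold change of 0.08 (SE 0.0897). Kcnj13, a weak rectifier best known from retinal pigment epithelium and choroid plexus, was at 0.525 and 0.347 CPM in controls and at 19.7, 18.0 and 16.8 in betaSDmut. The groups lay far apart, with a log2 fold change of 5.37 (SE 0.195, adjusted p = 0.000484 by edgeR), or 41.4-fold. Kcnj13 occupies chromosome 1, 87386363 to 87394729 on the minus strand, inside Gigyf2 on the other strand, and 49.1% of its 1270 exonic bases are shared with that gene's exons. Gigyf2 was at 88.5 and 88.6 CPM in controls and 90.9, 82.7 and 79.9 in betaSDmut (log2 fold change -0.08, adjusted p = 0.558). Whether the counting used strand is not given in the sources used here.

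Kcnj5, a subunit of the G-protein-gated rectifier of heart atrium (chromosome 9, 32314707 to 32344350), was at 0.429 and 10.5 CPM in the controls and at 251, 260 and 202 in betaSDmut. All 3 mutant libraries were above both controls, which themselves differed widely. Its log2 fold change of 5.41 (SE 1.16) was not called in the edgeR fit (adjusted p = 0.0675), while DESeq2 called it (adjusted p = 0.000669), as did edgeR without control 1 (4.49, adjusted p = 0.0346) or without control 2 (9.09, adjusted p = 0.0158). With 1 control left in each of these fits, the difference between the controls does not enter the spread that the test uses. The authors' deposited table gives 6.66 and calls it. Kcnj5 made up 14.6%, 14.3% and 12.5% of all potassium channel counts in the betaSDmut libraries, and 0.0337% and 0.771% in the controls. Per length it went from rank 32 of 74 (1.54 FPKM) to rank 3 (65.9, range 57.1 to 72.1). Kcnj6, which forms channels with other G-protein-gated subunits, was at 8.11 and 8.19 CPM in controls and 12.2, 16.9 and 13.9 in betaSDmut (log2 fold change 0.81, SE 0.156, adjusted p = 0.0363 by edgeR).

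Of 10 tandem-pore-domain genes tested, 4 rose and none fell, or 40%, against 7.94% of all genes called. Their median log2 fold change was 0.54 against 0.01 over all genes. Kcnk2, which encodes the TREK-1 channel gated by stretch and lipids (chromosome 1, 189207930 to 189402273), was at 0.763 and 1.21 CPM in controls and at 27.5, 24.9 and 23.4 in betaSDmut. That is a log2 fold change of 4.65 (SE 0.199, adjusted p = 0.000868 by edgeR), or 25.1-fold, with no overlap between groups. Kcnk3, an acid-sensitive leak channel, was at 16.4 and 20.7 CPM against 31.2, 33.4 and 35.3 (log2 fold change 0.84, adjusted p = 0.0198). Its relative Kcnk9 was at 0.143 and 0.78 CPM against 3.95, 2.97 and 3.4 (2.86, adjusted p = 0.0447). Kcnk1 was at 34.0 and 34.1 CPM against 44.0, 46.9 and 41.6, a small change in close libraries (0.37, SE 0.0747, adjusted p = 0.0401). The abundant Kcnk16 was at 206 and 209 CPM against 272, 268 and 229, which was not called (0.30, adjusted p = 0.116).

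Among accessory subunits, 2 of 11 rose, or 18.2%, against 7.94% of all genes called. Kcnab3, a beta subunit that binds the cytoplasmic face of voltage-gated channels (chromosome 11, 69326258 to 69333042), was at 7.87 and 7.45 CPM in controls and at 33.3, 60.2 and 55.5 in betaSDmut. Its log2 fold change was 2.69 (SE 0.297, adjusted p = 0.00923 by edgeR), or 6.46-fold, and betaSDmut 1 was the lowest of the mutant libraries. The call was lost without control 1 (adjusted p = 0.124) and without control 2 (0.14). Kcne2, a single-span subunit that modifies several channels, rose from 2 counts in each control to 16, 14 and 30 in betaSDmut (log2 fold change 3.03, SE 0.566, adjusted p = 0.0327), so it stayed a low transcript.

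The 26 voltage-gated alpha subunits had a median log2 fold change of -0.30, the same as the inward rectifiers, and 1 rose and 1 fell. That is 7.69% called, against 7.94% of all genes. Kcnc4, a fast-inactivating channel, was at 0.716 and 1.52 CPM in controls and 6.08, 4.38 and 4.24 in betaSDmut (log2 fold change 2.11, adjusted p = 0.0297 by edgeR). Kcng3, a subunit that is silent by itself and joins channels of other families, was at 2.39 and 2.9 CPM against 0.499, 0.33 and 0.761 (-2.30, adjusted p = 0.0252). An unadjusted p under 0.05 was found for 14, against 25.7% of all genes, and 10 of the 14 were lower, among them Kcnh2 (107 and 110 CPM against 91.7, 97.1 and 81.2, adjusted p = 0.111). Of 10 calcium- and sodium-activated genes, 1 was called, or 10%, against 7.94% of all genes. It was Kcnn4, the intermediate-conductance calcium-activated channel, at 1.53 and 0.693 CPM against 4.83, 5.29 and 6.81 (log2 fold change 2.35, adjusted p = 0.0226 by edgeR). The islet-abundant Kcnmb2 was at 106 and 107 CPM against 115, 107 and 100.

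**Figure D2:**
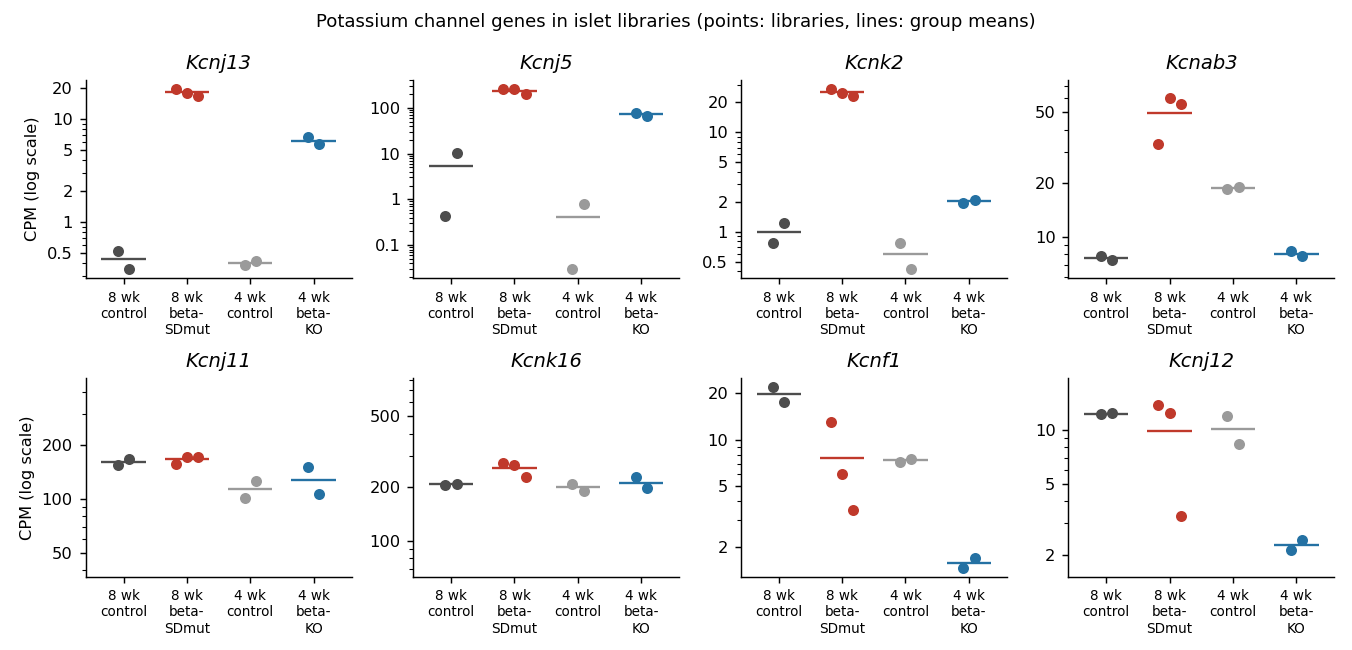
CPM (log axis) of 8 potassium channel genes in every islet library, with 1 point per library and a line at each group mean. Kcnj13 and Kcnj5 are high in both mutant groups, Kcnk2 mainly at 8 weeks (23.4 to 27.5 CPM), and Kcnab3 lies above its controls at 8 weeks and below them at 4 weeks. Kcnj11 and Kcnk16 overlap or lie close throughout.

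In the 4-week libraries labelled betaKO, 1 potassium channel gene rose and 3 fell of 63 tested, against 1.56% of all 14942 genes. The count was 1 without control 1, without control 2 or without betaKO 2, where 0.0259%, 0.0946% and 0.392% of all genes were called. The median log2 fold change of the 63 was 0.23. Kcnj13 was at 0.386 and 0.418 CPM in controls and 6.69 and 5.68 in betaKO (log2 fold change 3.93, SE 0.34, adjusted p = 0.0224 by edgeR), which was lost without control 1 (0.107) or control 2 (0.118). Gigyf2 was at 84.5 and 86.3 CPM against 92.4 and 88.7. Kcnab3 fell, from 18.6 and 19.2 CPM to 8.34 and 7.86 (-1.22, SE 0.135, adjusted p = 0.0331), and that call was lost without control 1 (0.157), control 2 (0.193) or betaKO 2 (0.0665).

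Kcnf1, a silent voltage-gated subunit (chromosome 12, 17172100 to 17176888), was at 7.16 and 7.52 CPM in 4-week controls and 1.48 and 1.71 in betaKO (log2 fold change -2.20, SE 0.259, adjusted p = 0.0335 by edgeR). At 8 weeks Kcnf1 was at 21.9 and 17.5 CPM in controls and 13.1, 6.03 and 3.51 in betaSDmut, which was not called (-1.39, adjusted p = 0.182). Kcnj12, a strong inward rectifier of muscle and nerve (chromosome 11, 61022564 to 61071131), was at 11.9 and 8.35 CPM in 4-week controls and 2.13 and 2.41 in betaKO (-2.16, SE 0.273, adjusted p = 0.0372). At 8 weeks the Kcnj12 groups overlapped, with betaSDmut 3 at 3.3 CPM and the other betaSDmut libraries at 13.8 and 12.5. The Kcnf1 call, like that of Kcnj12, was lost in fits without 1 library. For Kcnf1 these were control 1 (adjusted p = 0.157), control 2 (0.193) and betaKO 2 (0.0665). For Kcnj12 it was each of the 4, with adjusted p from 0.0532 without betaKO 1 and 0.0736 without betaKO 2 to 0.145 without control 2 and 0.169 without control 1.

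Kcnj5 was at 0.0297 and 0.776 CPM in 4-week controls and 77.5 and 65.6 in betaKO, far apart but with unlike controls. Its log2 fold change of 7.89 (SE 0.886) had an adjusted p of 0.0746 in edgeR and 0.000294 in DESeq2, and edgeR called it without control 1 (0.0258) or without control 2 (0.00449), where again only 1 control is left and the difference between the controls does not enter the spread. Per length, Kcnj5 went from rank 66 of 74 to rank 7 (19.3 FPKM). Kcnk2 was at 0.773 and 0.418 CPM against 1.95 and 2.1 (1.71, SE 0.468, adjusted p = 0.179), a much smaller separation than at 8 weeks. Kcnj11 was at 101 and 126 CPM against 151 and 106, groups that overlap (log2 fold change 0.18, adjusted p = 0.743). In the same libraries alpha-cell markers summed to 64188 and 52203 CPM in betaKO and 30286 and 25949 in controls, acinar markers to 43370 and 15254 against 11676 and 6285, and beta markers to 176721 and 164210 against 207429 and 211597. Their part in these results was not tested.

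The 2 islet effects were compared directly in a fit of all 9 islet libraries, as the betaSDmut change minus the betaKO change. Age and mutation differ together between these effects and cannot be told apart, and the labels refer to an earlier publication for how the 4-week libraries were made. Of 73 potassium channel genes tested, 2 were called, both with the higher change in betaSDmut, against 1.21% of all 15995 genes. For Kcnab3 the changes were opposite and differed by 3.91 on the log2 scale (SE 0.36, adjusted p = 0.00725 by edgeR), a call lost without 8-week control 2 (0.0689). For Kcnk2 they differed by 2.99 (SE 0.394, adjusted p = 0.0175). The Kcnk2 call was lost without 8-week control 1 (0.0625), 8-week control 2 (0.0683), betaSDmut 2 (0.0505), 4-week control 1 (0.132) or betaKO 2 (0.0505). For Kcnj13 the difference of 1.43 (SE 0.329) was not called (adjusted p = 0.111), and for Kcnj5 it was -2.50 (SE 1.93, adjusted p = 0.644) and turned to 1.18 without 8-week control 2. An unadjusted p under 0.05 was found for 18 of the 73, against 13.7% of all genes. Without 8-week control 2, edgeR called no gene at all among 16626, and 13 of 74 potassium channel genes had an unadjusted p under 0.05, against 8.76% of all genes.

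**Figure D3:**
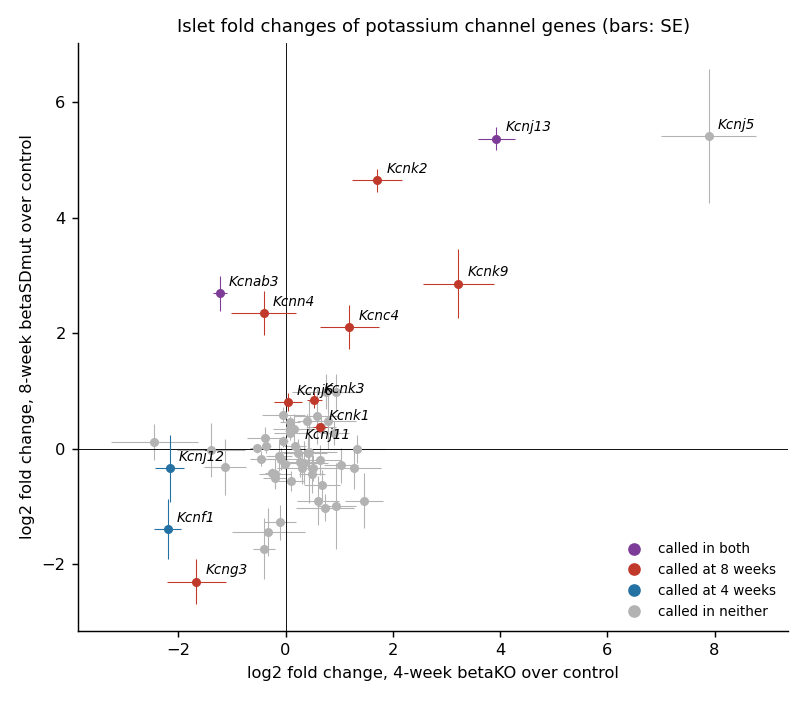
Log2 fold change of each potassium channel gene tested at both ages, with betaKO over control at 4 weeks on the x axis, betaSDmut over control at 8 weeks on the y axis, and bars of 1 SE. Kcnj13 (3.93 and 5.37) is called in both with the same sign and Kcnab3 (-1.22 and 2.69) in both with opposite signs, while Kcnj11 lies near the origin.

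Potassium channel genes with a final Nkx2.2 site in the gene or the upstream stretch, together with Kcnj11 and Kcnh2, whose joined sites lie outside it, were called at 8 weeks in 5 of 20 cases. Those without one were called in 6 of 50, against 7.94% of all genes. At 4 weeks the counts were 2 of 19 and 2 of 44, against 1.56% of all genes. The shares with and without a site were not tested against each other. The called genes with a site at 8 weeks were Kcnj13, Kcnab3, Kcnc4, Kcne2 (in an intron, rank 176) and Kcnj6, whose highest of 3 sites lay 122 bp from its start at rank 125.

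Among 25 listed partner genes of potassium channels (receptor subunits, channel partners, related cation channels, the sodium-potassium pump and cotransporters), 24 were tested at 8 weeks. Of these 1 rose and 3 fell, against 7.94% of all genes called. Dpp6, a partner of transient voltage-gated channels, rose (log2 fold change 2.19, SE 0.209, adjusted p = 0.00632 by edgeR). Among those that fell was the potassium-chloride cotransporter Slc12a5 (-0.94, adjusted p = 0.0203). At 4 weeks 1 of 23 fell, the pacemaker channel Hcn4 (-0.92, adjusted p = 0.0468 by edgeR), against 1.56% of all genes called. None of 24 was called for the difference of the islet effects, against 1.21% of all genes. There 5 had an unadjusted p under 0.05, against 13.7% of all genes. In embryonic pancreas edgeR called none of 22, and none had an unadjusted p under 0.05.

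In embryonic pancreas no potassium channel gene was called among 81 tested, against 0.00534% of all 18723 genes, which is 1 gene, and DESeq2 called none of them either. At an unadjusted p under 0.05 there were 8, 3 higher and 5 lower in Nkx2.2SDmut, against 2.54% of all genes. The median log2 fold change of the 81 was -0.14. The beta marker list summed to 403 to 981 CPM in controls and 146 to 229 in mutants. Per kilobase of exon, Kcnk16 was the highest potassium channel gene in controls (38.5 ± 14.2 CPM per kb, SD, n = 3), ahead of Kcnk1 (23.6), Kcnj8, the ATP-sensitive pore of vessel walls (17.0), Kcnq1 (14.2) and Kcnh2 (14.0). Kcnj11 was sixth (11.8 ± 2.75).

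Kcnj13, Kcnj5 and Kcne2, which lay above the controls in betaSDmut islets, also lay apart in the embryo, at low level and short of the threshold. They were the 3 of 81 tested genes whose groups did not overlap. The share over all genes was not computed, so whether this count differs from that of other genes is not known. Kcnj5 and Kcne2 were named for their low p-values in embryo, so their separation is not separate support. Kcnj13 was at 0.46, 0.715 and 0.441 CPM in controls and 1.37, 0.875, 2.15 and 1.4 in mutants, without overlap (log2 fold change 1.42, SE 0.394, unadjusted p = 0.00766, adjusted p = 1 by edgeR). Kcnj5 was at 0.121, 0.444 and 0.518 CPM against 0.593, 1.3, 2.47 and 1.24 (1.95, SE 0.641, unadjusted p = 0.0172 by edgeR). Kcne2 was at 0.121, 0.0247 and 0.0259 CPM against 0.413, 0.26, 0.735 and 0.211 (2.75, SE 0.768, unadjusted p = 0.00801 by edgeR). Kcnk2 and Kcnab3 did not share this: their groups overlapped, with log2 fold changes of 0.31 and 0.04. Kcnj11 was at 54.7, 38.9 and 36.0 CPM in controls and 40.5, 40.9, 62.7 and 64.4 in mutants, which overlap.

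Lower in the mutants, short of the threshold, were Kcnk9 and Kcnq1ot1, the imprinted non-coding transcript that runs antisense to Kcnq1. Kcnk9 was at 9.15, 8.04 and 2.98 CPM in controls and 0.568, 3.85, 0.882 and 0.475 in mutants, so SDmut 2 overlapped control 3 (log2 fold change -2.21, unadjusted p = 0.0258, adjusted p = 1 by edgeR). Those are the 2 libraries with muscle transcripts, and without them the log2 fold change was -3.74 (adjusted p = 0.181). Kcnq1ot1 was at 54.7, 94.6 and 34.2 CPM against 27.4, 28.7, 31.8 and 35.8 (-0.98, unadjusted p = 0.0136 by edgeR). Its size rested in part on control 2, without which it was -0.52. Counting without strand would mix Kcnq1ot1 with Kcnq1 over the stretch they share. Their exons share 121 bases, 0.13% of those of Kcnq1ot1, which lies inside Kcnq1 on the other strand.

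Some potassium channel genes were high in a few libraries of either genotype, and some of these libraries were also high in markers of other tissues. Kcnk13 was at 2.85 CPM in control 3 and 2.39 in SDmut 2, the muscle-rich libraries, and at 0 to 0.29 in the other 5. Kcnc4 was at 2.07 and 2.18 CPM in controls 2 and 3 and at 1.99 in SDmut 2, and at 0.0484 to 0.132 elsewhere. Of the libraries with high Kcnc4, control 2 was not muscle-rich (12 muscle genes summed to 15.6 CPM). Kcnq3, a voltage-gated subunit of neurons, was at 12.3 CPM in control 2 and at no more than 4.35 in any other library, and a list of Schwann and neuron markers summed to 319 CPM there against 53.6 to 136. Kcnn4, known from red cells and lymphocytes, was at 12.7 CPM in SDmut 1, where blood markers summed to 3813 CPM against 813 to 2060 elsewhere. The part of these tissues in the group comparison was not tested beyond the fit without the 2 muscle-rich libraries, in which edgeR called no potassium channel gene of 79, against 1 of all 18905 genes, and 10 had an unadjusted p under 0.05, against 3.27% of all genes.

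**Figure D4:**
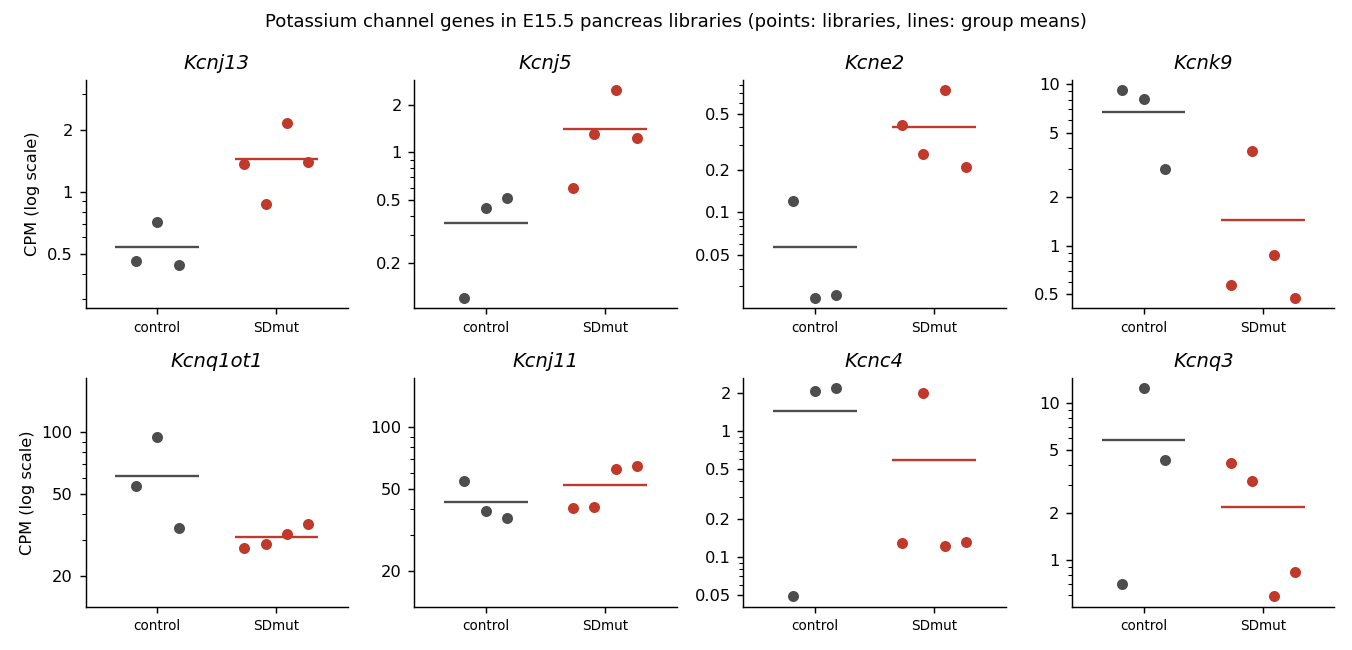
CPM of 8 potassium channel genes in the 7 embryonic pancreas libraries, with 1 point per library and a line at each group mean. Kcnj13, Kcnj5 and Kcne2 are low throughout, and their groups do not overlap. Kcnk9 overlaps, and Kcnq3 is set apart by control 2 (12.3 CPM).

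In motor neuron progenitors with induced wildtype Nkx2.2, 7 potassium channel genes rose and 1 fell of 61 tested, against 9.49% of all 15653 genes. With the replicate number as a block, 17 rose and 5 fell, 22 in all, against 29.6% of all genes. The numbers pair these libraries, since the deviations of same-numbered pMN and iNkx2.2 libraries correlated at 0.548 to 0.584 across genes. The count without the block was 3 without pMN 1 or pMN 2, 2 without iNkx2.2 1 or iNkx2.2 3, 4 without iNkx2.2 2, and 4 (3 up, 1 down) on sequencing lane 2 alone. In these fits 2.66% to 6.44% of all genes were called. Kcnn1 and Kcne1 kept their calls with any 1 library left out, and the other 6 each lost theirs in at least 1 such fit. On lane 2 alone the adjusted p of Kcnn1 was 0.0516. The median log2 fold change of the 61 was 0.40 against -0.01 for all genes. Markers of neurons and Schwann cells summed to 235 to 481 CPM in pMN, 768 to 1013 in iNkx2.2 and 856 to 860 in iSDmut, and those of motor neuron progenitors to 824 to 992, 354 to 510 and 387 to 576. Their part in the results was not tested.

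Kcnh2 was the highest potassium channel gene in pMN per length (18.2 FPKM), followed by Kcnk5 (4.39), Kcnip3 (3.14), Kcnk1 (2.70) and Kcnmb4 (2.38). Kcnh2 was at 50.4, 43.5 and 55.7 CPM in pMN and 71.3, 73.9 and 80.1 in iNkx2.2 (log2 fold change 0.59, SE 0.121, adjusted p = 0.0181 by edgeR). In iSDmut it was at 79.1 and 65.3 CPM, 0.53 above pMN (adjusted p = 0.0633 by edgeR) in a comparison that shares the pMN libraries. With the replicate block this iSDmut change was 0.60 (adjusted p = 0.00461 by edgeR). Same-numbered pMN and iSDmut libraries correlated at 0.376 and 0.054, so blocked iSDmut values rest on a pairing that is not shown. The lowest adjusted p was that of Kcnn1, the small-conductance calcium-activated channel of neurons (chromosome 8, 70842049 to 70863258). Kcnn1 was at 15.1, 9.52 and 12.4 CPM in pMN, 30.8, 24.3 and 27.5 in iNkx2.2 (1.16, SE 0.172, adjusted p = 0.0046 by edgeR), and 21.6 and 21.7 in iSDmut (0.81 over pMN, adjusted p = 0.0506). The replicate block gave 0.84 for Kcnn1 in iSDmut over pMN (adjusted p = 0.00785 by edgeR).

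Of 27 voltage-gated alpha subunits tested, 4 rose with iNkx2.2 and none fell, or 14.8%, against 13.1% called among all potassium channel genes and 9.49% among all genes. Kcna6, a Shaker-type channel, was at 0.668, 0.546 and 1.52 CPM in pMN, 2.51, 3.0 and 2.41 in iNkx2.2 and 1.68 and 2.45 in iSDmut (log2 fold change in iNkx2.2 1.49, adjusted p = 0.0436 by edgeR). Kcnh4 was at 0.612, 0.182 and 0.296 CPM in pMN and 2.43, 1.12 and 2.75 in iNkx2.2 (2.53, adjusted p = 0.0214). Kcnip3, a calcium sensor that binds transient voltage-gated channels, was at 8.79, 12.3 and 10.8 CPM, 15.4, 19.0 and 20.4, and 11.7 and 14.5 in iSDmut (0.78, adjusted p = 0.0283). For Kcnj12 the values were 2.73, 2.97 and 3.55 CPM, 6.22, 7.2 and 8.45, and an uneven 2.85 and 7.14 in iSDmut (1.23, adjusted p = 0.0433).

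With the replicate block, 14 further genes were called for iNkx2.2 over pMN, 10 of them higher and 4 lower. Among the higher were Kcnk12, a halothane-inhibited leak channel (log2 fold change 2.12, SE 0.557, adjusted p = 0.0223 by edgeR), Kcna5, an ultrarapid delayed rectifier (1.32, SE 0.311, adjusted p = 0.0144), and Kcnk3 (1.64, adjusted p = 0.0358). Kcnn3, a small-conductance relative of Kcnn1, Kcnk6, Kcnc1, Kcns1 and Kcnj11 were also among them, with log2 fold changes of 0.80 to 1.49. The lower ones were Kcnk1 (-0.91, adjusted p = 0.00657), Kcng1 (-0.71), Kcnn2 (-0.76) and Kcnma1, the large-conductance calcium-activated pore (-1.16, SE 0.331, adjusted p = 0.0306). Of these, Kcnma1 was at 1.17, 1.33 and 1.9 CPM in pMN and 0.755, 0.447 and 0.679 in iNkx2.2, without overlap.

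Kcne1, the accessory subunit of the slow delayed rectifier of heart (chromosome 16, 92345982 to 92359468), fell with both transgenes. It was at 0.668, 0.788 and 0.592 CPM in pMN, 0.0612, 0.0447 and 0 in iNkx2.2 (log2 fold change -3.93, SE 0.609, adjusted p = 0.00556 by edgeR) and 0.056 and 0.0415 in iSDmut (-3.69, SE 0.761, adjusted p = 0.0334). Both comparisons share the pMN libraries. In the fit with the mutant transgene and no block, none rose and 2 fell of 61, against 3.54% of all genes. With the replicate block 11 were called, against 16.8% of all genes, though the numbers are not shown to pair iSDmut with pMN. The second of the 2 that fell was Kcnk1, at 4.23, 8.43 and 7.62 CPM in pMN, 2.45, 3.85 and 4.37 in iNkx2.2 and 1.46 and 2.37 in iSDmut (iSDmut over pMN -1.81, SE 0.409, adjusted p = 0.0458 by edgeR). No potassium channel gene was called for iSDmut over pMN when any pMN, iSDmut or iNkx2.2 library was left out, other than 1 without iNkx2.2 3, while 1.09% to 3.05% of all genes were called in these fits. For iNkx2.2 over pMN the Kcnk1 change was -0.94, with an adjusted p of 0.117 and of 0.00657 with the replicate block.

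Kcnj11 was at 0.723, 0.303 and 0.973 CPM in pMN, 2.12, 1.39 and 2.07 in iNkx2.2 and 0.728 and 1.04 in iSDmut. The iNkx2.2 libraries were above all others (log2 fold change over pMN 1.45, SE 0.412, adjusted p = 0.0572 by edgeR, and 0.0153 with the replicate block). Its receptor partner Abcc8 rose with iNkx2.2 (2.30, SE 0.374, adjusted p = 0.00688) and had a change of 0.17 in iSDmut over pMN. Of the 20 partner genes tested, 3 rose with iNkx2.2, among them Abcc8 and Slc12a5 (1.38), against 9.49% of all genes called. In iSDmut over pMN 1 rose, Slc12a5 (1.27), against 3.54% of all genes. Kcnj13 and Kcnj5 had at most 2 counts in any progenitor library, and Kcnk2 and Kcnab3 changed by 0.59 and 0.51 in iNkx2.2 over pMN (adjusted p = 0.45 and 0.326).

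The mutant and wildtype transgenes were compared in the same fit, in lines that differ and at Nkx2-2 levels of 245 to 248 against 343 to 378 CPM, which cannot be told apart from the mutation. None of 61 potassium channel genes was called by edgeR without a block, against 0.281% of all genes. DESeq2 called 1, against 3.02% of all genes, and edgeR with the replicate block called 1, against 3.37%. At an unadjusted p under 0.05 there were 6, 1 higher and 5 lower in iSDmut, against 12.5% of all genes. The lowest p was that of Kcns1, a silent subunit that joins delayed rectifiers. Kcns1 was at 0.979, 1.34 and 1.17 CPM in iNkx2.2 and 0.28 and 0.291 in iSDmut, with pMN between them at 0.501, 0.606 and 0.677 (log2 fold change -1.99, SE 0.41, adjusted p = 0.0908 by edgeR). With the replicate block Kcns1 was called (-1.97, SE 0.407, adjusted p = 0.0393 by edgeR). The numbers are not shown to pair iSDmut with iNkx2.2 (correlations of 0.334 and 0.108). Of the 6, the 1 that was higher was Kcnmb2, at 0.0816, 0 and 0 CPM in iNkx2.2 and 0.672 and 0.748 in iSDmut, which are 12 and 18 counts (4.03, SE 0.875, adjusted p = 0.106 by edgeR without a block). For Kcnj11 the change was -1.07 (SE 0.456, adjusted p = 0.373) and for Abcc8 -2.13 (SE 0.426, adjusted p = 0.0854).

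**Figure D5:**
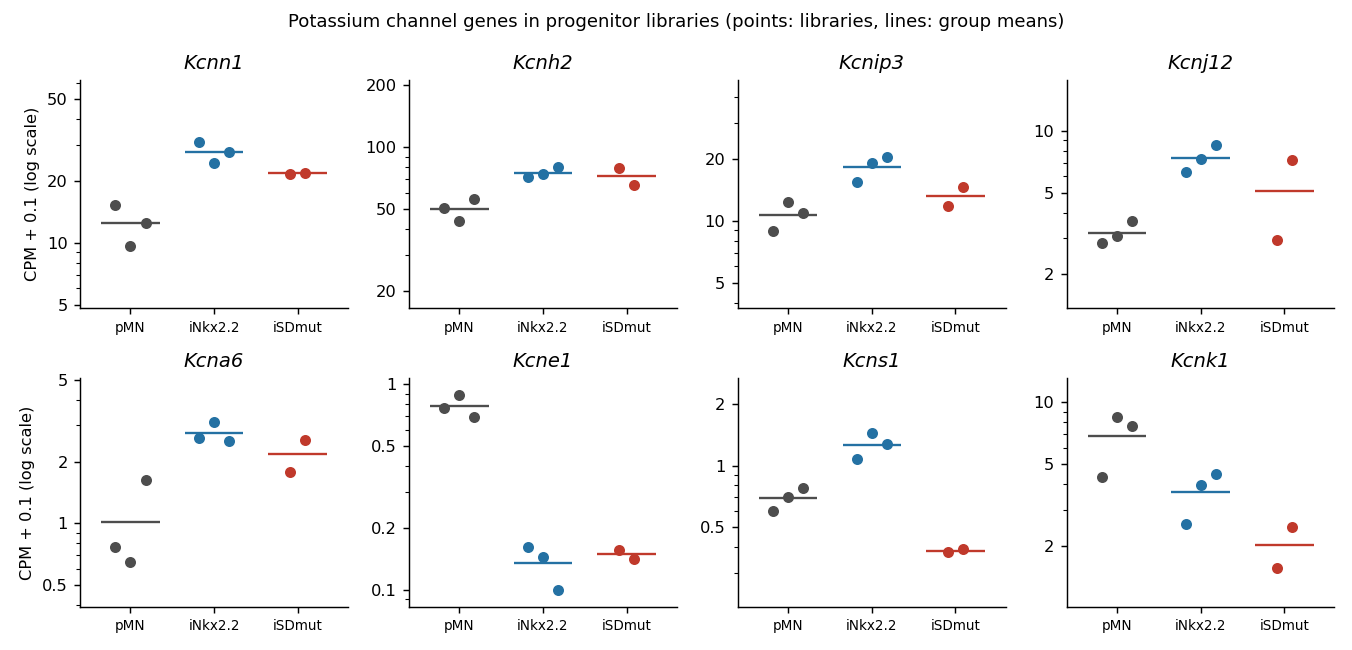
CPM of 8 potassium channel genes in the 8 progenitor libraries, with 1 point per library and a line at each group mean. Kcnn1, Kcnh2 and Kcna6 lie above pMN in both induced groups, Kcne1 lies near 0 in both, and Kcns1 is lowest in iSDmut (0.28 and 0.291 CPM).

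Across tissues, the summed level of all potassium channel genes was 1271 and 1361 CPM in 8-week control islets, 1716, 1823 and 1621 in betaSDmut, 1154 and 1088 in 4-week controls and 1262 and 1112 in betaKO. Without Kcnj5 the 8-week sums were 1271 and 1350 against 1465, 1563 and 1419. In embryonic pancreas the sums were 774, 845 and 693 CPM in controls and 699, 697, 756 and 726 in mutants, and in progenitors 203, 184 and 223 in pMN, 272, 259 and 304 in iNkx2.2 and 254 and 249 in iSDmut. The iNkx2.2 and iSDmut libraries were thus each above all pMN libraries. Sums weigh long transcripts more than short ones, and no test was made of them.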

How the data were processed

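Gene counts, deposited by the authors as whole numbers per gene, were used as they stand. The authors also deposited FPKM values for islets and progenitors, log2 fold changes with p-values, and log2 CPM values and read counts at ChIP events. STAR, Cufflinks, DESeq2, edgeR 3.20.9, limma 3.34.9, bedtools 2.17.0 and the build mm10 are named in the submitters' processing notes, and the labels name an Illumina TruSeq kit. Library strand and the rule for reads that fit several genes are not given in the sources used here, so overlapping or near-identical genes are uncertain. Kcnb2 has a second row in the progenitor table.

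Potassium channel genes, role groups, partner genes and marker lists were chosen with earlier results of these data known. All genes that passed filterByExpr were fitted with edgeR 4.0.16 in R 4.3.3 (TMM, robust quasi-likelihood test, Benjamini-Hochberg at 0.05), with SE taken as the absolute log2 fold change over the square root of F. The fits used the groups compared, all 9 islet libraries for the difference, and all 8 progenitor libraries. CPM values are TMM-scaled. Embryonic levels per length are CPM per kb of GENCODE exon. The fits were tested on simulated data. Alternatives were DESeq2 1.42.0, RLE factors, no count filter, each library left out, blocks, lane 2 only, and the embryonic fit without 2 muscle-rich libraries.

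Named genes were Kcnj11, Kcnj13, Kcnk2 and Kcnab3, those called, the 5 highest per length in each tissue, the 5 lowest p-values in embryo, and genes with 2 or more sites or called with a site. Kcnk13, Kcnq3, Kcns1 and, outside the comparisons that call them, Kcnc4, Kcnn4, Kcnf1 and Kcnj12 were named after their values were seen, as were Gigyf2, the partner genes with values, and the genes called with the replicate block alone. Some genes that were called are not reported here.

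Replicate numbers in the titles pair pMN with iNkx2.2: deviations from group means correlated at 0.561, 0.548 and 0.584. Replicate 3 of both was on lane 4 and the others on lane 2. Of the iSDmut libraries, iSDmut 1 was on lane 2 and iSDmut 2 on lane 3. Sequence was read from GRCm38, where 5.25% of final sites lay within 500 bp of a protein-coding start, against 1.22% and 0.942% when shifted by 5000 bp.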

Additional observations from a re-analysis of the deposited data

Results flagged for a closer look

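The changes of Kcnab3 in betaSDmut and in betaKO islets differed by 3.91 on the log2 scale and those of Kcnk2 by 2.99, in the direct test of the difference over all 9 islet libraries (adjusted p = 0.00725 and 0.0175 by edgeR). Age and mutation change together in that test and cannot be told apart.

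Kcnk9 in embryonic pancreas was at 3.85 CPM in SDmut 2, far from the other mutant libraries, of which the next was at 0.882. The gap was 0.879 of the range of the 4 libraries, above Dixon's 95% critical value for 4 libraries, which chance passes in about 1 of 20 groups, and 13 such groups were checked. SDmut 2 is 1 of the 2 libraries with muscle transcripts, and the part of those in the value was not tested.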

How the results depend on the processing

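The count of potassium channel genes called at 8 weeks, 11, was 23 with DESeq2, against 13.2% of all genes. It was 5 with a replicate block, a fit without betaSDmut 3, against 4.38%. When a betaSDmut library was left out it was 3 to 21, against 2.52% to 18.1%. At 4 weeks, 4 became 7 with DESeq2, against 5.15% of all genes. Leaving out any 4-week library leaves 1 library in a group. For the difference of islet effects, 2 became 4 with DESeq2, against 4.08% of all genes. Without a betaSDmut library it was 1 to 3, against 0.415% to 2.15%. For iNkx2.2 over pMN, 8 became 22 with the replicate block, against 29.6% of all genes, and 4 on lane 2 only, against 6.44%. Without a pMN or iNkx2.2 library it was 2 to 6, against 2.66% to 8.39%. For iSDmut over pMN, 2 became 5 without a count filter (2.67% of all genes), 5 with DESeq2 (8.83%) and 11 with the replicate block (16.8%). Without a pMN or iNkx2.2 library it was 0 to 1, against 1.09% to 3.05%. For iSDmut over iNkx2.2, 0 became 1 without a count filter (0.569% of all genes), with DESeq2 (3.02%) and with the replicate block (3.37%). Same-numbered libraries correlated at 0.548 to 0.584 between pMN and iNkx2.2. For iSDmut the values were 0.376 and 0.054 with pMN, and 0.334 and 0.108 with iNkx2.2. In islets same-numbered libraries correlated at -0.126 to -0.039. Kcnj13 and Kcnk2 at 8 weeks, and Kcne1 for iNkx2.2 over pMN, kept their calls in every alternative run. The cause of these shifts was not tested, other than that fewer libraries were fitted.

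Signs turned in the following cases. Without the 2 muscle-rich libraries these were Kcnab3 (-0.08) and Kcnh2 (-0.05) in embryo, and with a block by the number in the library name Kcnq1 (-0.04) and Kcnh2 (-0.04). Without a count filter Kcnk5 for iNkx2.2 over pMN was 0.01. Kcnab3 for iSDmut over pMN was 0 with RLE factors or DESeq2, 0.02 without a filter and 0.17 with the replicate block, which gave 0 for Kcnh2 in iSDmut over iNkx2.2. When a library was left out, signs also turned in embryo for Kcnab3 (-0.10 to 0.20), Kcnk16 (-0.10 to 0.44), Kcnk1 (-0.01 to 0.42), Kcnj8 (-0.11 to 0.22), Kcnq1 (-0.08 to 0.28) and Kcnh2 (-0.03 to 0.15). At 8 weeks they did for Kcnj11 (-0.01 to 0.10), Kcnmb2 (-0.04 to 0.06) and Kcnh5 (-0.44 to 0.32). At 4 weeks they did for Kcnj11 (-0.09 to 0.42), Kcnk16 (-0.02 to 0.19), Kcnh2 (-0.06 to 0.04), Kcnh1 (-0.73 to 0.07), Kcnj6 (-0.26 to 0.27) and Kcnn3 (-0.26 to 0.55). In the difference of islet effects they did for Kcnj11 (-0.36 to 0.15), Kcnj5 (-5.57 to 1.18) and Kcnn3 (-0.26 to 0.53). In progenitors they did for Kcnk5 in iNkx2.2 over pMN (-0.15 to 0.08), for Kcnk2 (-0.28 to 0.82) and Kcnab3 (-0.24 to 0.23) in iSDmut over pMN, and for Kcnk2 (-0.87 to 0.23), Kcnh2 (-0.20 to 0.07) and Kcnk5 (-0.28 to 0.03) in iSDmut over iNkx2.2.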
